A study of Homo sapiens with 6 samples.

Results

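The genes examined here encode the factors that hold RNA polymerase II (Pol II) near promoters and carry it through gene bodies. They are 37 genes chosen by name as subunits of DSIF, NELF, P-TEFb and its inhibitors, the CDK12 and CDK13 kinases, the super elongation complex, the PAF1 complex, FACT and a few other elongation factors, out of 35810 genes that had a matched transcript in the deposited data. All 37 passed the filter of at least 10 estimated reads in at least 3 libraries.

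After initiation, Pol II pauses a short distance into the gene. DSIF, made of SPT4 and SPT5, and NELF hold it there, and the kinase P-TEFb releases it by phosphorylating SPT5, NELF and the Pol II tail. P-TEFb is kept inactive by the 7SK RNA with its binding proteins, and it is brought to genes within the super elongation complex. Released Pol II then travels with SPT6, the PAF1 complex, FACT and TFIIS, which loosen nucleosomes, support elongation and rescue backtracked polymerase.

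The study asked how Pol II is degraded when SPT5 is lost, and examined ARMC5 as an adaptor that could link the ubiquitin ligase CUL3 to Pol II. RNA-seq was run on 3 libraries with an shRNA against ARMC5 (shARMC5) and 3 libraries with a nontargeting shRNA (shNT). Both groups were DLD-1 cells, a human colorectal adenocarcinoma line, of the genotype SPT5-AID, whose SPT5 protein is fused to a tag that auxin can direct to the proteasome through the plant protein AtAFB2. The labels name no auxin for either group, so the comparison is of ARMC5 knockdown against control in cells with the tagged SPT5. The shRNAs were delivered by lentivirus with puromycin selection. The study lists more than 1 ARMC5 construct, and the sources used here do not say which was sequenced. The study describes its replicates as biological without saying whether they were separate infections or cultures, and p-values measure the spread between these libraries.

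The libraries held 26201112 to 40866478 estimated reads on transcripts, with the groups overlapping in depth. ARMC5 itself stood at 10.8, 12 and 12.9 CPM (reads per 1000000 in the library, scaled by TMM) in the shARMC5 libraries and at 23.0, 25.9 and 26.7 in the shNT libraries. Every library thus carried the ARMC5 level its label implies, with a log2 fold change of -1.09 (SE 0.08, edgeR adjusted p = 5.32e-07). Of 9 intestinal epithelial markers, 8 exceeded 1 TPM (a level corrected for transcript length and scaled to 1000000 in each library) in at least 1 library, and KRT20 was at 0. Their summed TPM was 7810 to 8100 in shARMC5 and 6880 to 7360 in shNT, and its part in the results below was not tested. Most of this sum was KRT8 (3580 TPM in shARMC5 and 3210 in shNT on average) and KRT18 (3060 and 2610 TPM), while CDX2 (117 and 123 TPM), CDH17 (30.9 and 37.5 TPM), VIL1 (3.56 and 8.59 TPM) and LGALS4 (0.366 and 0.86 TPM) averaged lower in shARMC5. The markers of leukocytes, fibroblasts and endothelium each summed to at most 1.19 TPM in any library. Since each library is RNA from a whole culture, fewer cells making a transcript and less of it per cell cannot be told apart.

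Of the 37 genes, 2 passed the test between shARMC5 and shNT (edgeR's quasi-likelihood test, Benjamini-Hochberg adjusted p under 0.1), which is 5.41% of them. Among all 13737 genes tested, 1064 passed, or 7.75%. SUPT4H1, which encodes SPT4, fell (3.3% of all genes passed lower), and MLLT3, which encodes the super elongation complex subunit AF9, rose (4.44% of all genes passed higher). The other 35 genes did not pass. The median log2 fold change of the 37 genes was 0.0155, with 20 above 0 and 17 below. The median size of the change was 0.035, beside 0.078 over all genes tested. Read depth was not matched between the 37 genes and all genes tested, so nothing is read from this difference in size. The share of these genes that passed was near the share of all genes, and nothing particular to them is read from it.

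**Figure D1:**
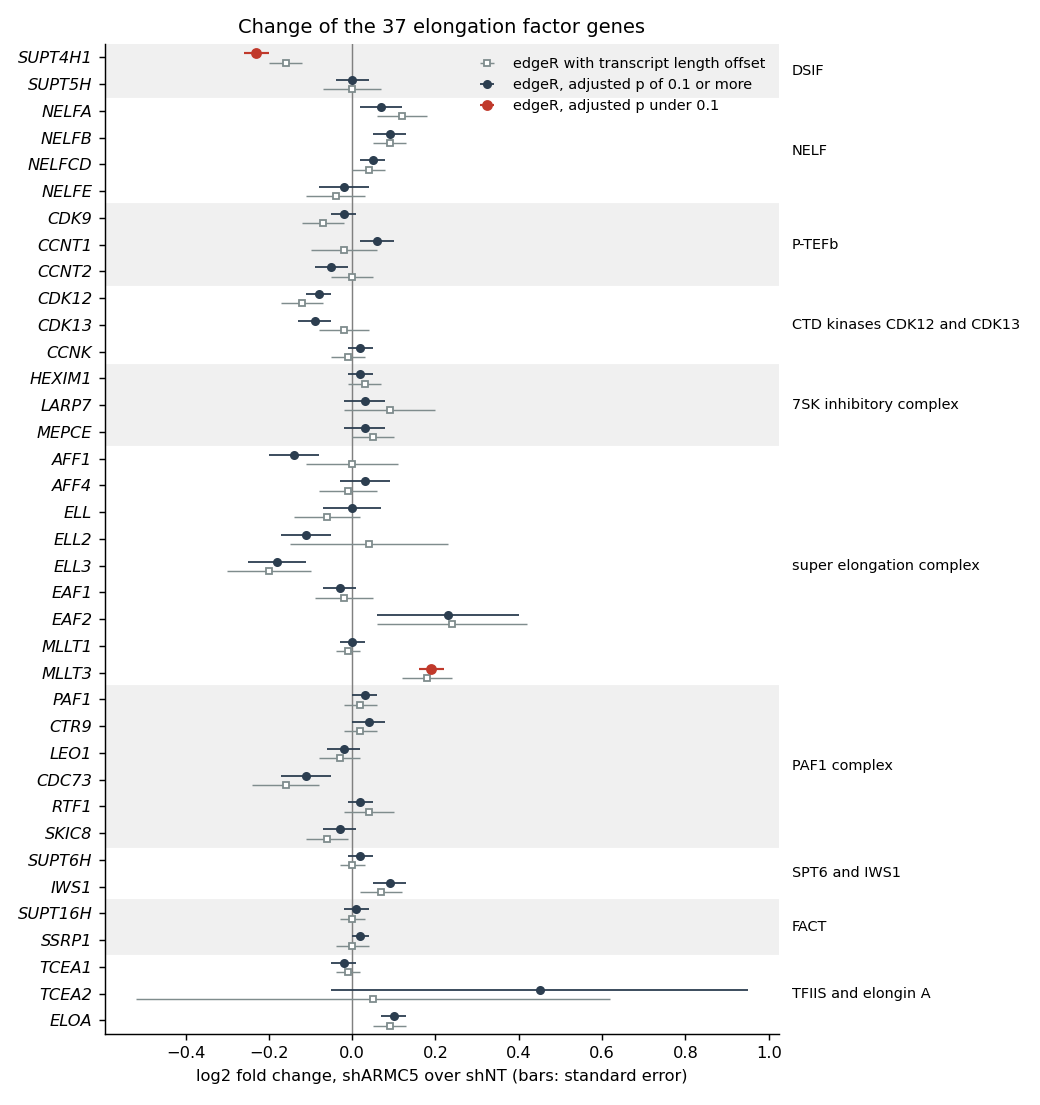
Log2 fold change of each of the 37 genes, shARMC5 over shNT (x axis), with its standard error as a bar, in order of complex (y axis). Filled circles are the edgeR fit, red where the adjusted p is under 0.1 (SUPT4H1 at -0.23 and MLLT3 at 0.19), and open squares are the same fit with an offset for average transcript length, in which SUPT4H1 stands at -0.16.

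Of the 2 DSIF genes, SUPT4H1 passed the test and SUPT5H did not, and the difference between their changes was not tested. SUPT4H1 lies on the minus strand at chr17:58345175-58353093 and SUPT5H on the plus strand at chr19:39436156-39476670 (GRCh38, GENCODE 44). The files list 7 transcripts of SUPT4H1 and 20 of SUPT5H. The sequences below mark the splice choices that separate the transcripts discussed here, and were read 5′ to 3′ from the GENCODE 44 transcripts. In SUPT4H1, an exon of 56 bases at chr17:58347529-58347584 is present in the reference transcript ENST00000225504 and skipped in ENST00000581166. Capitals mark the exon that follows the shared end of the exon before it.
ENST00000225504: tcttcctttgatggAATCATTGCGATGA
ENST00000581166: tcttcctttgatggGTAACTTTAAGCCA

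In SUPT5H, an exon of 12 bases at chr19:39458294-39458305, in capitals below, is present in the reference transcript ENST00000432763 and absent from ENST00000359191, whose coding sequence is 3249 bases long in place of 3261.
ENST00000432763: tagagaaagAAGAGATTGAAGcctccaata
ENST00000359191: tagagaaagcctccaata

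SPT4 is the small zinc finger subunit of DSIF and binds SPT5 directly. SUPT4H1 was at 201, 197 and 206 CPM in the shARMC5 libraries and at 233, 239 and 235 CPM in the shNT libraries. Every shARMC5 library lay below every shNT library, and the spread within a group was small beside the gap (SD 4.14 and 3.44 CPM, n = 3 each). The log2 fold change was -0.23 (SE 0.03, edgeR adjusted p = 8.36e-05), a level 0.854 times that of shNT. These values rest on 5187 to 7789 estimated reads per library.

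The size of this decrease, and whether it passed, depended on how transcript length was treated. The average effective length of SUPT4H1, weighted over its transcripts, was 821, 869 and 828 bases in shARMC5 and 912, 867 and 858 bases in shNT. With that length as an offset the log2 fold change was -0.16, with an adjusted p of 0.187 in edgeR and 0.0408 in DESeq2. On log2(TPM + 1), limma gave -0.18 with an adjusted p of 0.147, and over all alternatives the adjusted p ran from 1.51e-10 to 0.187. A read-through gene, ENSG00000285897, shares 63.7% of the exonic bases of SUPT4H1 on the same strand. It held 49 to 87 reads per library, and adding them to SUPT4H1 left the log2 fold change at -0.23.

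SPT5, the large DSIF subunit that clamps the nucleic acids in Pol II and the target of the degron in these cells, is encoded by SUPT5H, which did not pass. It was at 105, 105 and 98.6 CPM in shARMC5 and at 108, 98.7 and 103 CPM in shNT, so the groups overlapped. Its log2 fold change was -0.00 (SE 0.04, edgeR adjusted p = 0.981), and its sign turned with the length offset, where it was 0.002. Per length, SUPT4H1 was at 379 ± 7.35 TPM (SD, n = 3) in shNT and SUPT5H at 61.3 ± 7.12 TPM. The ratio of SUPT4H1 to SUPT5H in TPM was 5.89, 4.8 and 6.06 in shARMC5 and 5.41, 6.59 and 6.74 in shNT. These ratios overlapped between the groups. They count all transcripts of each gene, coding or not. In shNT the retained-intron ENST00000581204 held 106, 142 and 119 TPM of the SUPT4H1 sum.

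**Figure D2:**
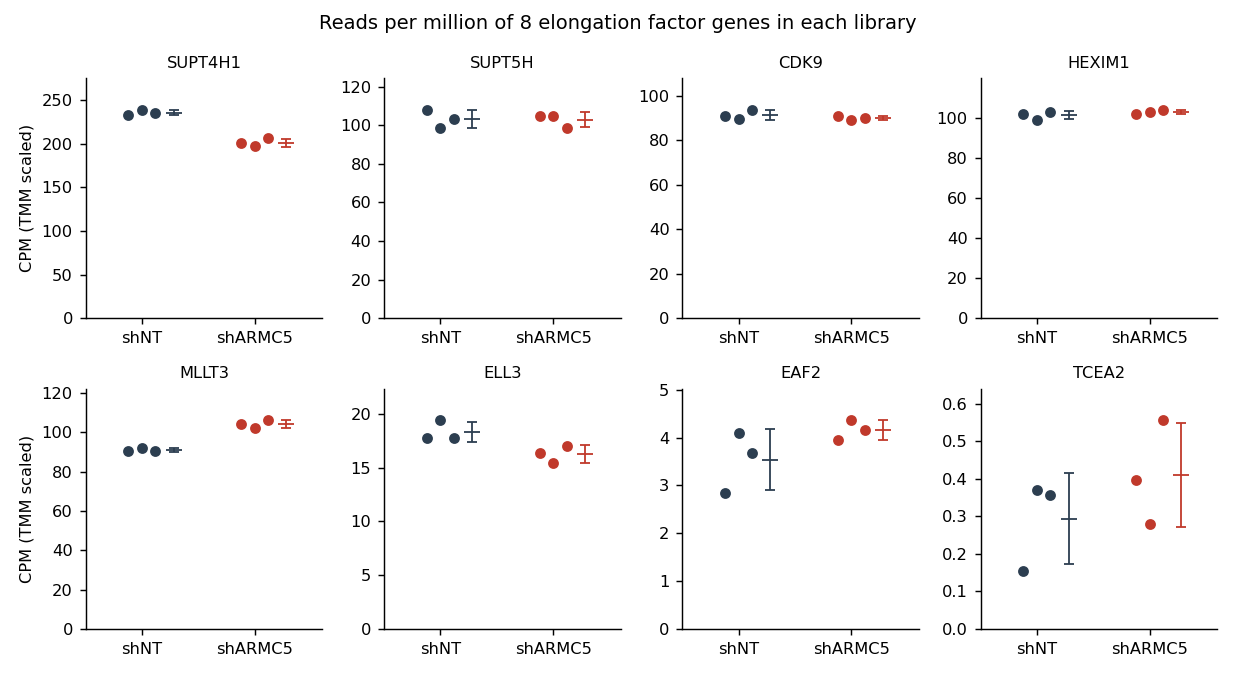
TMM-scaled CPM (y axis, from 0) of 8 genes in each of the 3 shNT and 3 shARMC5 libraries (x axis), as points, with the group mean and SD beside them. The 3 shARMC5 libraries lie below the shNT libraries for SUPT4H1 and ELL3 and above them for MLLT3, and the groups overlap for SUPT5H, CDK9, HEXIM1, EAF2 and TCEA2.

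At the level of single transcripts, all 7 of SUPT4H1 and 8 of the 20 of SUPT5H passed the filter. None of these 15 passed the edgeR test across 49809 transcripts, in which 4 passed in all (0.00803%), while 2 of the 15 had an unadjusted p under 0.05 (4.93% of all transcripts) and DESeq2 called 1, beside 2.72% of the transcripts to which it gave an adjusted p. That 1 was ENST00000225504, the reference transcript of SUPT4H1 with a coding sequence of 351 bases. It was at 101, 108 and 95.2 CPM in shARMC5 and at 130, 144 and 132 CPM in shNT, without overlap, as was found for 12.7% of all transcripts tested. Its log2 fold change was -0.42 (SE 0.06), with an adjusted p of 0.255 in edgeR and 1.13e-07 in DESeq2.

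For each of the other 6 SUPT4H1 transcripts the groups overlapped. The exon-skipping ENST00000581166, for which no coding sequence is annotated, was at 21, 19.6 and 27.9 CPM in shARMC5 and at 30.0, 22.2 and 17.9 CPM in shNT, a log2 fold change of -0.03 (SE 0.23). ENST00000577396, with a shorter coding sequence of 228 bases, was at 19.4, 20.0 and 21.2 CPM against 19.7, 14.2 and 19.2 CPM, and the retained-intron ENST00000581204 was at 36.1, 30.3 and 31.2 CPM against 28.6, 39.8 and 34.0 CPM. ENST00000581540, with 324 coding bases, had a log2 fold change of -0.29 (SE 0.18), which ran from -0.425 to -0.139 with single libraries left out, the latter without shNT replicate 3. ENST00000580947, which starts at an extra first exon but holds the full 351 coding bases, had a log2 fold change of 0.45 (SE 0.23), and ENST00000579289, a target of nonsense-mediated decay, was at most 0.521 CPM in any library.

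As a share of the reads of the gene, ENST00000225504 took 49.9%, 54.1% and 46.3% in shARMC5 and 55.9%, 59.4% and 56.4% in shNT. The difference was -7.15 percentage points, with a two-sided exact permutation p of 0.1, the smallest that 3 against 3 libraries can give, and 0.6 after adjustment over the 15 transcripts. The share of ENST00000577396 lay above every shNT library in all 3 shARMC5 libraries, at 9.63%, 9.98% and 10.3% against 8.43%, 5.85% and 8.18%, with the same exact p of 0.1 and adjusted p of 0.6. The difference of 2.49 percentage points became 1.16 as a share of TPM. In a grouping chosen after the values were seen, the transcripts with the full coding sequence together took 55.2% ± 2.85 (SD, n = 3) in shARMC5 and 60.5% ± 1.63 in shNT (exact p = 0.1). These shares come from the estimated assignment of reads that fit several transcripts, whose error was not available here.

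Of the SUPT5H transcripts, 3 long coding ones held most of the reads. ENST00000359191, without the 12-base exon, was at 40.5, 30.9 and 37.6 CPM in shARMC5 and at 20.8, 17.5 and 31.8 CPM in shNT. The highest shNT library lay above the lowest shARMC5 library, and the log2 fold change was 0.64 (SE 0.24, edgeR adjusted p = 0.985). The reference transcript ENST00000432763 was at 46.8, 28.7 and 28.8 CPM against 36.7, 37.3 and 39.2 CPM. ENST00000598725, with the same 3261 coding bases, ranged from 9.86 to 35.2 CPM within shARMC5 alone, so the split between these transcripts was unstable from library to library.

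When the long coding transcripts were grouped by the 12-base exon, again after the values were seen, those without it took 41.7%, 32.6% and 42.8% of the reads of the group in shARMC5. In shNT they took 21.8%, 21.9% and 33.9%. The difference was 13.2 percentage points, with SDs of 5.58 in shARMC5 and 6.95 in shNT, and the third shNT library lay above the second shARMC5 library (two-sided exact permutation p = 0.2, where 0.1 is the smallest possible). It ran from 11.2 to 17.2 percentage points with single libraries left out. The remaining 5 SUPT5H transcripts that passed the filter, the retained-intron ENST00000600818, ENST00000599335, ENST00000595368 and ENST00000599907 and the short ENST00000601515, each stayed under 5 CPM in every library.

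**Figure D3:**
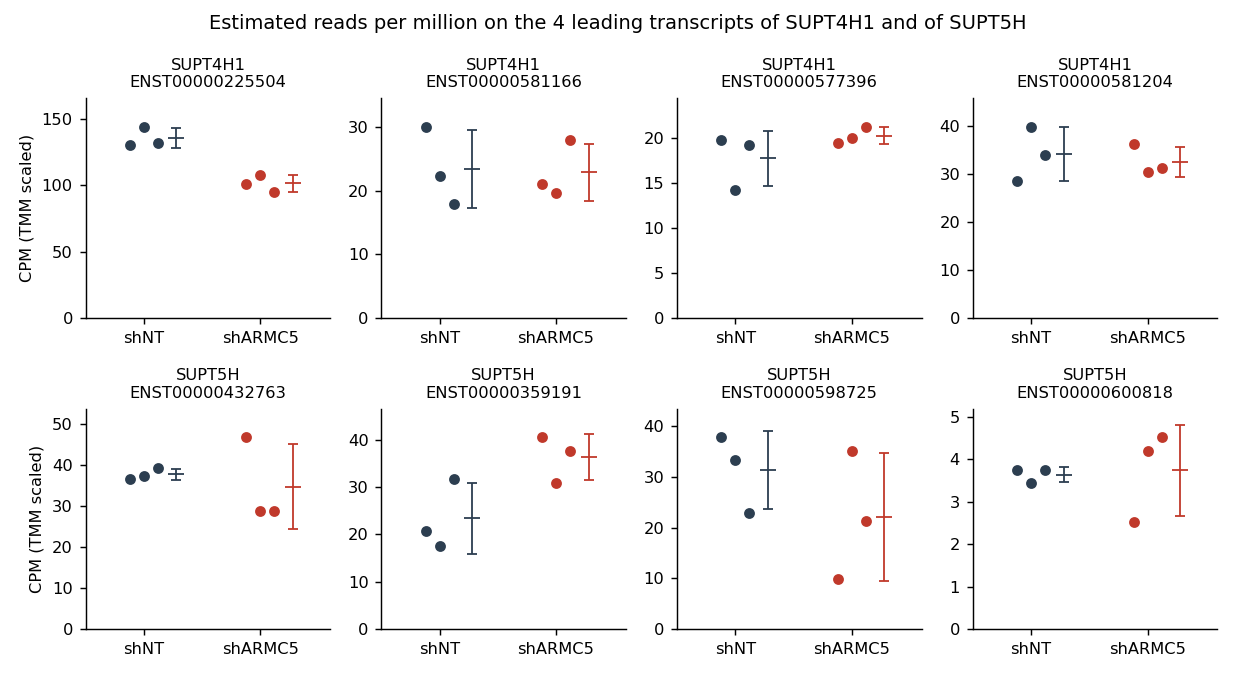
Estimated TMM-scaled CPM (y axis, from 0) on the 4 most abundant transcripts over all 6 libraries of SUPT4H1 (upper row) and SUPT5H (lower row) in 3 shNT and 3 shARMC5 libraries (x axis), as points, with the group mean and SD. The shARMC5 libraries lie below the shNT libraries for ENST00000225504 alone among these 8, and for ENST00000598725 they span 9.86 to 35.2 CPM.

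NELF binds paused Pol II together with DSIF. None of its 4 subunit genes passed the test. NELFB, a core subunit, was at 119, 113 and 121 CPM in shARMC5 and at 107, 111 and 113 CPM in shNT, with a log2 fold change of 0.09 (SE 0.04, edgeR adjusted p = 0.173). NELFCD, which encodes the subunit that contacts Pol II with NELF-A, had all 3 shARMC5 libraries (107 to 109 CPM) above the shNT libraries (102 to 106 CPM), with a log2 fold change of 0.05 (SE 0.03). NELFA was at 0.07 (SE 0.05) and NELFE, whose protein carries the RNA-binding domain, at -0.02 (SE 0.06), both with overlapping groups. NELFCD shares 97.4% of its exonic bases with CTSZ on the opposite strand, and the library kit does not mark strand, so reads from the overlap of those genes cannot be told apart by strand.

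None of the P-TEFb and 7SK protein genes passed the test. CDK9, the kinase, was at 91.0, 89.3 and 90.1 CPM in shARMC5 and at 91.1, 89.5 and 93.8 CPM in shNT. The libraries of both groups interleaved, and the log2 fold change was -0.02 (SE 0.03, edgeR adjusted p = 0.816). It was -0.072 with the length offset in edgeR and ran from -0.036 (without shNT replicate 2) to -0.002 (without shNT replicate 3) with single libraries left out. CCNT1 and CCNT2, the genes of its cyclin partners, were at 0.06 (SE 0.04) and -0.05 (SE 0.04), and with the length offset at -0.02 and -0.00. HEXIM1 encodes the protein that inhibits CDK9 when bound to 7SK RNA. It was at 102, 103 and 104 CPM in shARMC5 and at 102, 98.9 and 103 CPM in shNT, a log2 fold change of 0.02 (SE 0.03, edgeR adjusted p = 0.772), and these groups overlapped too. With single libraries left out it ran from 0.005 (without shNT replicate 2) to 0.038 (without shNT replicate 3).

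LARP7, which protects the end of 7SK, and MEPCE, which caps it, each had a log2 fold change of 0.03 (SE 0.05). Per length, CDK9 was at 90.3 ± 4.57 TPM in shNT and HEXIM1 at 43.4 ± 1.55 TPM. The ratio of CDK9 to HEXIM1 in TPM was 2.07, 1.93 and 1.82 in shARMC5 and 2.1, 2.03 and 2.11 in shNT. The first shARMC5 library lay within the shNT range and the other two below it.

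CDK12 and CDK13 phosphorylate the Pol II tail during elongation with cyclin K. CDK12 was at 173, 161 and 158 CPM in shARMC5 and at 177, 172 and 170 CPM in shNT, and CDK13 at 84.5, 82.8 and 83.1 CPM against 92.8, 87.1 and 87.0 CPM. For CDK13 every shARMC5 library lay below every shNT library and for CDK12 2 of 3 did, with log2 fold changes of -0.09 (SE 0.04, edgeR adjusted p = 0.188) and -0.08 (SE 0.03, adjusted p = 0.241). Neither passed, and with the length offset CDK13 was at -0.02 and CDK12 at -0.12. CCNK, the gene of cyclin K, was at 0.02 (SE 0.03), and 59.5% of its exonic bases are shared with CCDC85C on the opposite strand.

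The super elongation complex joins P-TEFb to the scaffolds AFF1 and AFF4, the ELL elongation factors with their partners EAF1 and EAF2, and the YEATS domain readers of acylated histones MLLT1 (ENL) and MLLT3 (AF9). MLLT3 (chr9:20341669-20622499, minus strand) was at 104, 102 and 106 CPM in the shARMC5 libraries and at 90.3, 92.2 and 90.4 CPM in the shNT libraries. All shARMC5 libraries were above all shNT libraries. The log2 fold change was 0.19 (SE 0.03, edgeR adjusted p = 0.00253), a level 1.14 times that of shNT, from 2533 to 4008 reads per library.

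The MLLT3 call was lost in both fits with the length offset, whereas that of SUPT4H1 was lost in edgeR and kept in DESeq2. The log2 fold change with the length offset was 0.18 (SE 0.06), with an adjusted p of 0.294 in edgeR and 0.174 in DESeq2, and limma on log2(TPM + 1) gave 0.15 with an adjusted p of 0.459. Over all alternatives the adjusted p ran from 3.1e-05 to 0.459. Of the 9 listed transcripts, 4 passed the filter, and they were examined after the gene's value was seen. The reference transcript ENST00000380338 (edgeR adjusted p = 0.671) and ENST00000630269 (edgeR adjusted p = 0.457) each had a log2 fold change of 0.28, with no overlap between groups in either, as for 12.7% of all transcripts tested. ENST00000629733, with a shorter coding sequence of 414 bases, was at 29.8, 31.0 and 33.2 CPM against 26.7, 33.4 and 32.2 CPM. It had a log2 fold change of 0.03 (SE 0.10) and ENST00000380321 one of 0.03 (SE 0.53), with overlapping groups in both.

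MLLT1, the paralog of MLLT3, was at 135, 131 and 136 CPM in shARMC5 and at 133, 136 and 134 CPM in shNT, with a log2 fold change of -0.00 (SE 0.03). The TPM ratio of MLLT3 to MLLT1 was 1.28, 1.26 and 1.46 in shARMC5 and 1.17, 1.17 and 1.18 in shNT. Each shARMC5 ratio was above each shNT ratio, with the third shARMC5 library standing highest. MLLT3 alone was at 59.6, 56.3 and 65.3 TPM in shARMC5 and at 56.3, 53.6 and 52.4 TPM in shNT. In TPM its groups thus met at 56.3, and the ratio was not tested.

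The other members of the complex did not pass. ELL3, the third ELL gene, was at 16.4, 15.4 and 17 CPM in shARMC5 and at 17.8, 19.4 and 17.8 CPM in shNT. The groups did not overlap, but the log2 fold change of -0.18 (SE 0.07) had an edgeR adjusted p of 0.187. ELL3 shares exonic bases with PDIA3 and SERF2 on the opposite strand, which held at least 8815 reads in every library beside 428 to 629 for ELL3, and with a read-through gene of 2 to 25 reads. AFF1 was at 57.1, 51.4 and 48.7 CPM in shARMC5 and at 61.3, 55.3 and 57.1 CPM in shNT, a log2 fold change of -0.14 (SE 0.06, edgeR adjusted p = 0.216). With the length offset AFF1 stood at -0.00 and ELL2, at -0.11 (SE 0.06) without it, at 0.04.

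EAF2 was a low gene of 93 to 172 reads per library, at 3.96, 4.36 and 4.16 CPM in shARMC5 and at 2.84, 4.10 and 3.68 CPM in shNT. The lowest shARMC5 library lay below the highest shNT library, and the log2 fold change of 0.23 (SE 0.17) had an edgeR adjusted p of 0.497. It was 0.098 without shNT replicate 1 and 0.356 without shNT replicate 2. AFF4, the main scaffold of the complex, was at 0.03 (SE 0.06), EAF1 at -0.03 (SE 0.04) and ELL at -0.00 (SE 0.07).

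None of the genes of the PAF1 complex, SPT6 and IWS1, FACT, TFIIS and elongin A passed the test. In the PAF1 complex, which promotes histone modification and release of Pol II into the gene body, PAF1 (0.03, SE 0.03), the scaffold CTR9 (0.04, SE 0.04), LEO1 (-0.02, SE 0.04), RTF1 (0.02, SE 0.03) and SKIC8 (-0.03, SE 0.04) had overlapping groups. CDC73, a tumour suppressor gene whose product is parafibromin, was at 34.3, 34.7 and 30.3 CPM in shARMC5 and at 35.1, 35.9 and 36.8 CPM in shNT. It was lower in all 3 shARMC5 libraries, with a log2 fold change of -0.11 (SE 0.06, edgeR adjusted p = 0.334).

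SUPT6H, the gene of the histone chaperone SPT6, was at 0.02 (SE 0.03) and its partner IWS1 at 0.09 (SE 0.04, edgeR adjusted p = 0.234). The FACT genes SUPT16H (0.01, SE 0.03) and SSRP1 (0.02, SE 0.02) were the most deeply covered, with 13155 to 23756 reads per library, and carried some of the smallest standard errors of the set. TCEA1, the gene of the broadly expressed TFIIS that restarts backtracked Pol II, was at -0.02 (SE 0.03).

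ELOA encodes elongin A, an elongation factor that also serves in a ubiquitin ligase acting on stalled Pol II. It was at 147, 158 and 151 CPM in shARMC5 and at 143, 143 and 141 CPM in shNT. All shARMC5 libraries were higher, and the log2 fold change of 0.10 (SE 0.03) had an edgeR adjusted p of 0.104, just outside the threshold. TCEA2, the TFIIS paralog known from testis, had the largest fitted value at 0.45 (SE 0.50, adjusted p = 0.700) on 5 to 14 reads per library, at 0.396, 0.279 and 0.555 CPM in shARMC5 against 0.153, 0.370 and 0.357 CPM in shNT. With the length offset in edgeR its log2 fold change was 0.05, under that of EAF2, and with single libraries left out it ran from 0.136 (without shNT replicate 1) to 0.688 (without shARMC5 replicate 2), so no difference was detectable at this depth.

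Across the 37 genes, the groups did not overlap for 8 (21.6%), beside 23.4% of all genes tested. The 4 with every shARMC5 library higher (12.5% of all genes) were NELFB, NELFCD, MLLT3 and ELOA, and the 4 with every shARMC5 library lower (10.9% of all genes) were SUPT4H1, CDK13, ELL3 and CDC73. At an unadjusted edgeR p under 0.05 stood 9 genes, which were SUPT4H1, NELFB, CDK12, CDK13, AFF1, ELL3, MLLT3, IWS1 and ELOA, beside 2481 of the 13737 genes tested. Without shARMC5 replicate 1, CDK12 (-0.12, edgeR adjusted p = 0.0686), AFF1 (-0.21, adjusted p = 0.041) and ELOA (0.12, adjusted p = 0.0671) also passed. That made 5 of the 37 genes, beside 920 that passed over all genes in the same fit. Leaving out any other library kept SUPT4H1 and MLLT3 as the only 2. With the length offset in edgeR the sign turned, at 2 decimals, for CCNT1 (-0.02), CCNK (-0.01), AFF4 (-0.01) and ELL2 (0.04), none of which passed in either fit.

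The levels of the 37 genes, unlike their changes, covered a wide range. In shNT the highest per length were SUPT4H1 at 379 ± 7.35 TPM (SD, n = 3) and SSRP1 at 373 ± 23.5 TPM, which did not differ beyond their spread, followed by SUPT16H at 174 ± 3.48 TPM. CDK9 (90.3 TPM), PAF1 (86.0 TPM), TCEA1 (83.0 TPM) and NELFCD (82.5 TPM) came next, each overlapping its neighbour in that order. In shARMC5 SUPT4H1 was at 335 ± 13.6 TPM and SSRP1 at 369 ± 6.72 TPM, with every SSRP1 value above every SUPT4H1 value. These levels are sums over all transcripts of a gene, coding or not. Of the SUPT4H1 sum in shNT, the reference transcript ENST00000225504 held 139, 146 and 132 TPM. The retained-intron ENST00000581204, of 539 bases and with no coding sequence annotated, held 106, 142 and 119 TPM. Coding transcripts alone were not ranked.

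Subunits of 1 complex differed in level. In P-TEFb the kinase gene CDK9 stood well above its cyclin genes CCNT1 (18.5 ± 1.61 TPM) and CCNT2 (16.7 ± 0.743 TPM), which overlapped each other. In NELF the order in shNT was NELFCD (82.5 TPM), NELFB (66.6 TPM), NELFE (51.4 TPM) and NELFA (29.0 TPM), with no overlap between neighbours. In the PAF1 complex PAF1 (86.0 TPM) and SKIC8 (76.5 TPM) were high and CTR9 (25.1 TPM) and CDC73 (19.2 TPM) low, and in the super elongation complex MLLT3 (54.1 TPM) and MLLT1 (46.1 TPM) led while ELL (7.71 TPM) and EAF2 (6.48 TPM) were lowest. TCEA2, at 0.609 TPM, was the only gene of the set near the limit of detection.

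**Figure D4:**
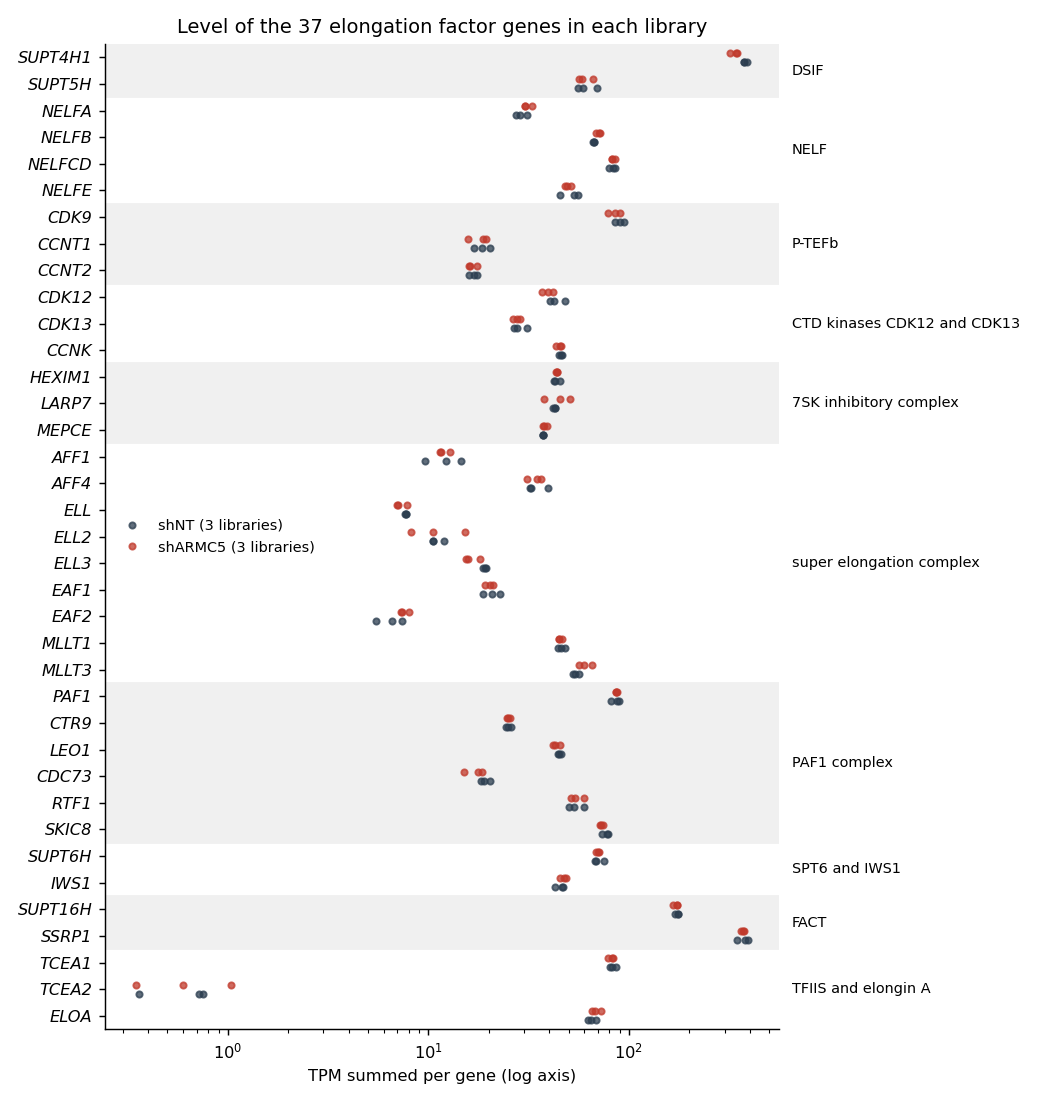
Summed TPM of each of the 37 genes (y axis, in order of complex) in each library on a log axis (x axis), with 3 shNT libraries in dark blue and 3 shARMC5 libraries in red. SUPT4H1 and SSRP1 are the highest, at 379 and 373 TPM in shNT, and TCEA2 the lowest, at 0.609 TPM. The sums include transcripts without a coding sequence.

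A further 49 genes of the same pathway gave 46 that could be tested. AFF2 and AFF3 were under the filter, and MLLT6 had no matched transcript. Of the 46, 5 passed (10.9%, beside 7.75% of all genes tested). All 5 were lower in shARMC5 and 0 higher, beside 3.3% of all genes that passed lower and 4.44% that passed higher, and nothing particular to the list is read from this. They were BRD3, a BET reader of acetylated histones (-0.20, SE 0.05, edgeR adjusted p = 0.0413), PHF3, which binds the phosphorylated Pol II tail (-0.13, SE 0.04, adjusted p = 0.0454), and the termination factor gene TTF2 (-0.12, SE 0.04, adjusted p = 0.0559). The chromatin remodeller CHD2 (-0.15, SE 0.04, adjusted p = 0.0609) and SETD2, the histone methyltransferase that travels with Pol II (-0.15, SE 0.04, adjusted p = 0.0719), completed them.

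BRD3 was at 31.7, 31.0 and 30.4 CPM in shARMC5 and at 34.4, 35.7 and 36.9 CPM in shNT, with no overlap. None of the 5 passed with the length offset in edgeR, where 1.71% of all genes passed, and none passed without shARMC5 replicate 3. With that offset the log2 fold changes of PHF3 (-0.146) and SETD2 (-0.177) were as large as without it, while those of BRD3 (-0.034), CHD2 (-0.046) and TTF2 (-0.057) were nearer 0. The phosphatase regulator gene PPP1R10, singled out after its values were seen, was at 0, 39.5 and 12 CPM in shARMC5 and at 48, 54.3 and 53.8 CPM in shNT. The groups did not overlap, but the shARMC5 libraries were far apart, and the log2 fold change of -1.55 (SE 1.16) had an edgeR adjusted p of 0.583. Several relatives of the genes above did not pass, among them the HEXIM1 paralog HEXIM2 (-0.11, SE 0.08), the elongin partners ELOB (0.06, SE 0.03) and ELOC (0.06, SE 0.04), and the phosphatase gene SSU72 (0.08, SE 0.03, edgeR adjusted p = 0.132).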

How the data were processed

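Polyadenylated RNA of 6 libraries was sequenced by the authors after library construction with NEBNext Ultra II. Per the study's methods and the submitters' processing notes, reads were trimmed with cutadapt 4.2 and quantified per transcript with Salmon 1.9.0 with GC bias correction, and the build is named as hg38. The kit named is the version that does not mark strand. The transcript set is not given in the sources used here. The authors deposited, for each of 177456 transcripts, the estimated count and the TPM, a level per length that sums to 1000000 in a library, and both were used.

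Transcripts were matched to GENCODE 44 by identifier without version. In all, 165533 matched and 11923 did not, and the unmatched ones held 2.96% to 3.04% of the reads and were left out. The sums of estimated counts over the transcripts of each gene were rounded, and a gene entered the fit when 3 or more libraries held 10 or more of its reads. The fit used edgeR 4.0.16 (robust quasi-likelihood, TMM, condition as the only term, R 4.3.3), with Benjamini-Hochberg adjustment over all genes tested and a threshold of 0.1. CPM are these counts per 1000000 of the TMM-scaled library, and a standard error is the log2 fold change over the square root of its F. Single transcripts were fitted the same way. Shares of reads were compared by a two-sided exact permutation test. Alternatives used DESeq2 1.42.0, limma 3.58.1 on log2(TPM + 1), average transcript length offsets, other scalings and filters, a replicate block, and each library left out. The procedure was checked on simulated gene counts, where recovery was required only for planted changes larger than that fitted for any member. That check did not cover the assignment of reads to transcripts.

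Values are given for genes that passed, SUPT4H1, SUPT5H, CDK9, HEXIM1 and the 5 largest log2 fold changes. They are also given for the transcripts of SUPT4H1 and SUPT5H that passed the filter, and for other pathway genes that passed. For some of these transcripts and for PHF3, TTF2, CHD2 and SETD2 they are a log2 fold change, a range or a limit, without values per library. Values of further genes (among them PPP1R10, NELFB, CDK12, CDK13, AFF1, MLLT1, CDC73 and ELOA) and of the MLLT3 transcripts were added after they were seen. The members and lists were chosen with earlier results of these data known. Replicates in each group number 3. Among the members, reads per library, on which counting precision depends, are given only for SUPT4H1, MLLT3, ELL3, EAF2, TCEA2 and the FACT genes. Of the pseudogenes named after a member, 18 were listed and 14 had no read in any library.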

Additional observations from a re-analysis of the deposited data

How the results depend on the processing

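Depth limits TCEA2 and EAF2 most, and the split of reads between transcripts carries an estimation error that could not be measured here. Of the 37 genes, 2 passed (1 higher, 1 lower). This became 1 (0 higher) in DESeq2 with the length offset, and 0 in edgeR with the length offset and in limma on log2(TPM + 1). It became 4 (2 higher, 2 lower) with no filter on low counts, where AFF1 and ELOA were added and 1537 passed over all genes. Leaving out single libraries gave 2 to 5 (1 to 2 higher, 1 to 3 lower), with 5 reached without shARMC5 replicate 1, where 920 passed over all genes. The cause of the lost calls was not tested.

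The labels give no shared source for same-numbered libraries, and whether numbers pair them was mixed in the data. Deviations of same-numbered libraries correlated at 0.0134, 0.139 and 0.175, and those of different numbers at -0.201 to 0.0667. Replicates 2 and 3 of shARMC5 correlated best with their own number, and replicate 1 with shNT replicate 3 (0.0251). The main fit, with condition as its only term, did not pair the libraries, and whether they share a source was not settled. With the replicate block 7 of the 37 genes passed (3 higher, 4 lower), beside 1766 of all 13737 genes tested. NELFB, CDK12, CDK13, AFF1 and ELOA were the ones added. Of the other pathway genes 6 passed with the block, 1 of them higher.

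Over all genes, 1064 passed (610 higher, 454 lower). The count was 568 (300 and 268) in DESeq2 and 235 (139 and 96) in edgeR with the length offset, 69 (34 and 35) in limma on log2(TPM + 1), 532 (336 and 196) with unmatched transcripts kept, 1766 (972 and 794) with the replicate block and 676 (261 lower) at an adjusted p under 0.05. With no filter on low counts 1537 passed (792 higher, 745 lower). Leaving out single libraries gave 536 to 1085 (351 to 625 higher, 185 to 460 lower), with 536 without shNT replicate 1, 600 without shARMC5 replicate 2 and 694 without shNT replicate 3. The 5 other pathway genes that passed, all lower, became 1 in DESeq2 with the length offset and with unmatched transcripts kept, 0 in edgeR with the length offset and in limma, 2 at an adjusted p under 0.05, and 0 to 5 with single libraries left out. They were 0 without shARMC5 replicate 3, 1 without shARMC5 replicate 2 or shNT replicate 1, and 3 without shNT replicate 3.

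Among the SUPT4H1 and SUPT5H transcripts, 0 passed in edgeR and 1, lower, in DESeq2, and 0 with any single library left out. ARMC5 passed under every alternative tried. The sign of SUPT5H, at -0.00, turned to 0.001 in DESeq2 and 0.002 in edgeR with the length offset, and ran from -0.035 to 0.03 with single libraries left out. ENST00000600818 was at -0.001 with the replicate block. With single libraries left out it ran from -0.114 to 0.262, ENST00000581166 from -0.2 to 0.189, ENST00000581204 from -0.183 to 0.056, ENST00000595368 from -0.09 to 0.48, ENST00000599335 from -0.289 to 0.25 and ENST00000432763 from -0.388 to 0.003. The median log2 fold change of all genes lay between -0.018 and 0.001 over all settings.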
